A study of Homo sapiens with 32 samples.

Results

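Described here are the accessible windows that lie beside, but not on, the sites where chromatin accessibility fell after degradation of ZNF143 in HEK293T cells. The count table holds 212358 windows of equal width, each with 200 bp on either side of its centre base, of which 186568 had enough reads to be tested. A window was called lost when its count was lower in dTAGV-1 than in DMSO at a Benjamini-Hochberg adjusted p below 0.05 in edgeR's quasi-likelihood test over 12 libraries, and 767 windows were lost (0.411% of those tested). Flanking windows were selected on that readout: they were tested, were not lost themselves, and had their centre more than 400 and at most 3000 bp from the centre of a lost window. This gave 682 windows. Of these, 673 lay more than 400 bp from every lost centre and so share no base with a lost window, and they are the flanking windows described below. The other 9 were within the range of one lost window while overlapping another. Since the same 12 libraries chose the windows, their values in those libraries are given as a description, and the 4 libraries of replicates 11 and 12, which took no part in the choice, are the independent measure.

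ATAC-seq, in which the transposase Tn5 inserts sequencing adapters into open DNA, was applied to clone ZD29 of HEK293T, a line from human embryonic kidney. Throughout this single clone ZNF143 carries an inducible degron tag, in control and treated cells alike. Treated cells received 50 nM dTAGV-1, a compound that brings tagged proteins to a ubiquitin ligase, for 30 minutes. Control libraries of replicates 9 to 16 are labelled DMSO, while the treatment protocol speaks of untreated cells. The labels list 32 samples in 4 groups of 8. The counts cover replicates 9 to 16 of both groups, or 16 libraries, and the rule used replicates 9, 10, 13, 14, 15 and 16 of each, 6 against 6. Those 12 libraries held 7935807 to 13671039 counts in the windows. Replicates 11 and 12 held 2275856 to 6742589, and the decile of windows with most counts took 31.7% to 45.8% of theirs, against 48.1% to 49.6% in the 12. The labels do not say whether replicates were separate cultures, so p-values measure the spread between these libraries only. The level of the ZNF143 protein was not analysed here.

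ZNF143 is a zinc finger transcription factor that binds a long sequence near many transcription start sites, including those of small nuclear RNA and housekeeping genes. A bound factor keeps nucleosomes off a stretch of DNA, and the nucleosomes on either side are often held in ordered positions. Windows beside a binding site therefore report on the linker DNA, promoter body or neighbouring elements around it rather than on the factor's own footprint.

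The lost windows whose neighbours are described at length include 5 with a ZNF143 core, the letters CCCANAATG or CCCANCATG on either strand within 100 bp of the window centre. Each is shown with 10 bases on either side, 5′ to 3′ on the strand of the core, from hg38, with the core in capitals. They lie at chr3:50292608-50292636 (plus strand, IFRD2), chr5:173616691-173616719 (minus, BOD1), chr6:11093686-11093714 (minus, SMIM13), chr16:4271874-4271902 (plus, TFAP4) and chr22:31347598-31347626 (minus, LINC01521), and the genes are those with the nearest annotated start.
IFRD2: gaactatgcaCCCACAATGccctgcgcgc
BOD1: aacttcccgcCCCACAATGcaaaggtcaa
SMIM13: gactacaactCCCAGAATGcaccgccact
TFAP4: gcctacaaatCCCACAATGctgcaccagc
LINC01521: catgctaataCCCAGAATGcttttccccc

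Of the flanking windows that were called higher, 4 are shown by the centre and the 50 bases on either side of it, plus strand of hg38. They are chr9:109119580-109119680 near TMEM245, chr2:85603343-85603443 near TMEM150A, chr5:173616037-173616137 near BOD1 and chr12:53726995-53727095 near CALCOCO1. Capitals would mark a ZNF143 core, the ETS letters CCGGAAGT, the YY1 letters AAGATGGC or the AP1 letters TGACTCA and TGAGTCA on either strand, and these stretches hold none. The lost windows beside those near TMEM245, TMEM150A and CALCOCO1 hold no ZNF143 core within 100 bp of the centre either. Nor do the lost windows near CCDC163, PRCC, ACTR1A, LETM1 and PEX26 that are described below. The fifth, near IFRD2, overlaps an untranslated region and is not printed.
TMEM245: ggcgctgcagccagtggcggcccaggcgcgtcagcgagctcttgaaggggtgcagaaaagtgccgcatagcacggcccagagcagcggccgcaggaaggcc
TMEM150A: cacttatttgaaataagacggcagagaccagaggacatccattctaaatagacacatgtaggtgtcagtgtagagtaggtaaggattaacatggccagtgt
BOD1: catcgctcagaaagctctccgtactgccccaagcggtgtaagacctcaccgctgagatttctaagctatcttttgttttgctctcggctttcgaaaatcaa
CALCOCO1: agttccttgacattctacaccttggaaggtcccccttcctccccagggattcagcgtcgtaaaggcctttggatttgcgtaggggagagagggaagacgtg

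Flanking windows were less open than lost windows and were often near a transcript start. Their median level in DMSO was 2.82 log2 CPM (counts scaled to the library size, with a prior count of 2, on a log2 scale), between the 1.39 of all tested windows and the 4.26 of lost windows. All windows have the same length, so that levels can be compared between them. The median GC content was 57.6%, against 47.9% over all tested windows and 58.6% in lost windows. A transcript start lay within 500 bp of the centre of 383 of the 673, or 56.9%, against 20.5% of all tested windows and 67.1% of lost ones. That share was 81.5% within 600 bp from the lost centre, 58.3% at 600 to 1000 bp, 43.5% at 1000 to 2000 bp and 25.3% at 2000 to 3000 bp, where each bin leaves out its lower limit. By the place of their centre in GENCODE release 44, 340 were intronic, 125 intergenic, 106 untranslated and 47 coding, and 55 lay in exons of noncoding transcripts. Coding exons held 6.98% of flanking windows, against 2.45% of all tested and 0.261% of lost windows. The authors' deposited summit list had a summit in 72.1% of flanking windows, against 81.3% of all tested and 96.3% of lost windows. The median of the authors' peak value for the window, on a −log10 q scale, was 53.4 in flanking windows, 28.4 over all tested windows and 469 in lost windows.

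The ZNF143 core was rare beside lost windows. It was within 100 bp of the centre in 8 of 673 flanking windows (1.19%), in 1.78% of all tested windows and in 13.2% of lost windows. The ETS letters were in 1.04% of flanking and 0.762% of all tested windows, and the YY1 letters in 1.78% and 1.21%. The AP1 letters were in 3.86% and 5.79%. The CTCF motif was in 1.34% and 3.28%, although it reached 6 of 75 windows, or 8.0%, at 2000 to 3000 bp. A match is a description of the sequence, not a bound site.

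Many lost windows had no flanking window counted for them. Each flanking window was counted for its nearest lost window only, and windows that were lost or overlapped a lost one were not counted. On that count, 349 of the 767 lost windows had none, 241 had exactly 1, 117 had exactly 2 and 60 had 3 or more. Of the 767, 49 lay within 3000 bp of another lost window. Flanking windows stood on both sides of 68. A few were shared, with 20 flanking windows within 3000 bp of more than one lost window, and 180 overlapped another flanking window and so share counts with it. Lost windows with a flanking window had a median log2 fold change of −0.64 and a median control level of 4.65 log2 CPM. Those without one had −0.85 and 3.76. In the same range 16 further windows had too few counts to be tested.

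The typical flanking window had a fold change near 0. In the 12 libraries the median log2 fold change of the 673 flanking windows (dTAGV-1 over DMSO) was 0.021. The quartiles were −0.085 and 0.114, and single values ran from −0.53 to 0.78. The median over all tested windows was 0.0010 and over lost windows −0.72. Negative fold changes were found in 303 flanking windows, or 45.0%, against 49.8% of all tested windows. By library, the mean level of the flanking windows above that of all tested windows was 1.09, 1.15 and 1.20 log2 CPM (lowest, median and highest) in DMSO and 1.08, 1.15 and 1.31 in dTAGV-1. The groups overlapped across their range, with means of 1.15 ± 0.04 in DMSO and 1.17 ± 0.08 in dTAGV-1 (SD, n = 6 each). The highest value was that of dTAGV-1 replicate 14. Without that library, left out after the data were seen, the median log2 fold change was −0.0055, 52.0% were negative, and 29 windows were lower and 26 higher at an unadjusted p below 0.05 in edgeR. For lost windows the same measure was 2.23, 2.28 and 2.37 in DMSO and 1.42, 1.49 and 1.58 in dTAGV-1, which did not overlap.

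**Figure D1:**
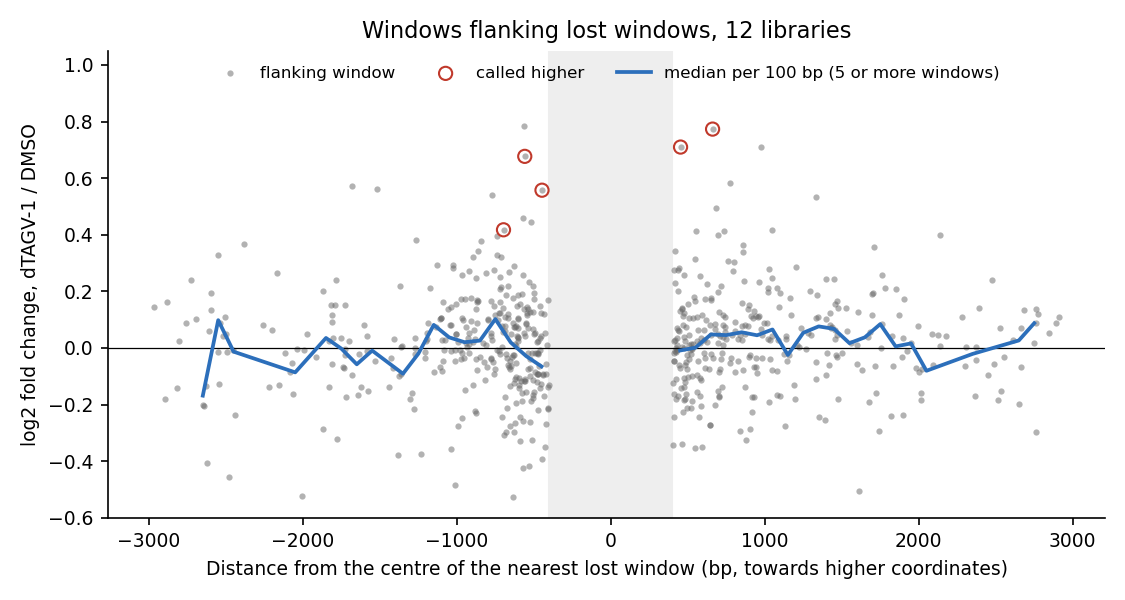
Log2 fold change (dTAGV-1 over DMSO, 12 libraries) of each of the 673 flanking windows against the signed distance of its centre from the nearest lost centre in bp. The grey band covers windows that would overlap the lost one, the line is the median per 100 bp and open red circles are the 5 windows called higher. The median line runs close to 0 on both sides while single windows spread from −0.53 to 0.78.

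Low p-values were found in both directions among the flanking windows. At an unadjusted p below 0.05 in edgeR, 20 were lower (2.97%, against 2.49% of all tested windows) and 30 were higher (4.46%, against 1.92%). At an adjusted p below 0.05, 5 were higher, or 0.743%, against 0.0075% of all tested windows, and by the rule none could be lower. These 5 are among only 14 windows called higher in the whole table, and the other 9 lay at least 35306 bp from a lost window. All 6 dTAGV-1 libraries exceeded all 6 DMSO libraries in 7 flanking windows (1.04%, against 0.0959%) and fell below them in 2 (0.297%, against 0.453%). Because the rule used this contrast, and left out windows called lower but not those called higher, nothing is read from these counts. Without dTAGV-1 replicate 14, 29 flanking windows were lower and 26 higher at an unadjusted p below 0.05 in edgeR. Flanking windows also had more counts, with a median standard error of 0.147 for the log2 fold change against 0.230 over all tested windows. The part of that precision in the counts of calls was not tested. Among windows with an average of 2 to 4 log2 CPM, the median log2 fold change was 0.027 over 430 flanking windows and 0.012 over all 50944 tested windows, which include them. Median standard errors there were 0.145 and 0.149. At an unadjusted p below 0.05 in edgeR, 25 of these flanking windows were higher (5.81%, against 2.00%) and 9 lower (2.09%, against 1.99%). At an adjusted p below 0.05 in edgeR, 4 were higher (0.930%, against 0.0118%). The rule used this contrast here too, so nothing is read from these counts either.

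Medians differed little between distance bins. Within 600 bp the median log2 fold change was −0.018 over 184 windows, and 54.9% were negative. At 600 to 1000 bp it was 0.045 over 228 windows, and 37.7% were negative. It was 0.029 over 186 windows at 1000 to 2000 bp (43.0% negative) and 0.0033 over 75 windows at 2000 to 3000 bp (48.0% negative). At an unadjusted p below 0.05 in edgeR, higher and lower windows were 12 and 12 in the nearest bin (6.52% each). They were 13 and 3 at 600 to 1000 bp (5.70% and 1.32%) and 4 and 3 at 1000 to 2000 bp (2.15% and 1.61%). In the farthest bin they were 1 and 2 (1.33% and 2.67%). Over all tested windows 1.92% were higher and 2.49% lower. The windows called higher were 3 in the nearest bin (1.63%) and 2 in the next (0.877%), against 0.0075% of all tested windows. Without dTAGV-1 replicate 14 the medians were −0.049, 0.0063, 0.011 and 0.019 from the nearest bin to the farthest, so that the excess of positive values at 600 to 2000 bp was smaller and the nearest bin, with 63.6% negative, was lower. Between the libraries of one group, the median deviation of these windows from their mean control level had an SD of 0.053 log2 over all flanking windows and of 0.070 in the nearest bin, so that the overall median of 0.021 and the nearest-bin median of −0.018 lie within the spread between libraries.

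Inside the inner limit the values were lower in the 12 libraries that chose the lost windows, with which these windows share bases. Windows that were not lost but overlapped a lost one, 227 in number, had a median log2 fold change of −0.096 in the 12 libraries, and 72.7% were negative. At an unadjusted p below 0.05 in edgeR, 59 of these windows were lower (26.0%, against 2.49% of all tested windows). Their median in replicates 11 and 12 was −0.016, 52.0% were negative, and at an unadjusted p below 0.05 in edgeR 0 were lower and 0 higher. The flanking windows within 600 bp had a median of −0.032 there and 53.3% were negative. Replicates 11 and 12 cannot tell whether the lower values inside the limit carried over. Between libraries of one group there, the median deviation of the flanking windows had an SD of 0.20 log2, which is larger than these medians. In the 12 libraries the 9 members that overlapped a nearer lost window had a median of 0.019. At 3000 to 10000 bp the median was −0.0015 over 934 windows. Just outside the inner limit, at 399 bp, 3 windows near STARP1, DIMT1 and FIS1 had −0.42, −0.032 and −0.23. The closest members, on either side of the lost window near RPS26 and at 404 bp near ENSG00000253470, had −0.13, −0.12 and −0.34. At the outer limit, the members near LMTK3, MED13L and STARP1 at 2969, 2914 and 2893 bp had 0.14, 0.11 and −0.18, and windows near BCL7C, DOK2 and SMPD3 at 3021, 3046 and 3056 bp had −0.0014, 0.046 and −0.034. Of the windows nearest the p threshold, the lost ones near RBM38, TECTA and SLC29A3 had an edgeR adjusted p of 0.0499, 0.0494 and 0.0490, and the nearest members on the lower side had 0.105, 0.115 and 0.201.

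**Figure D2:**
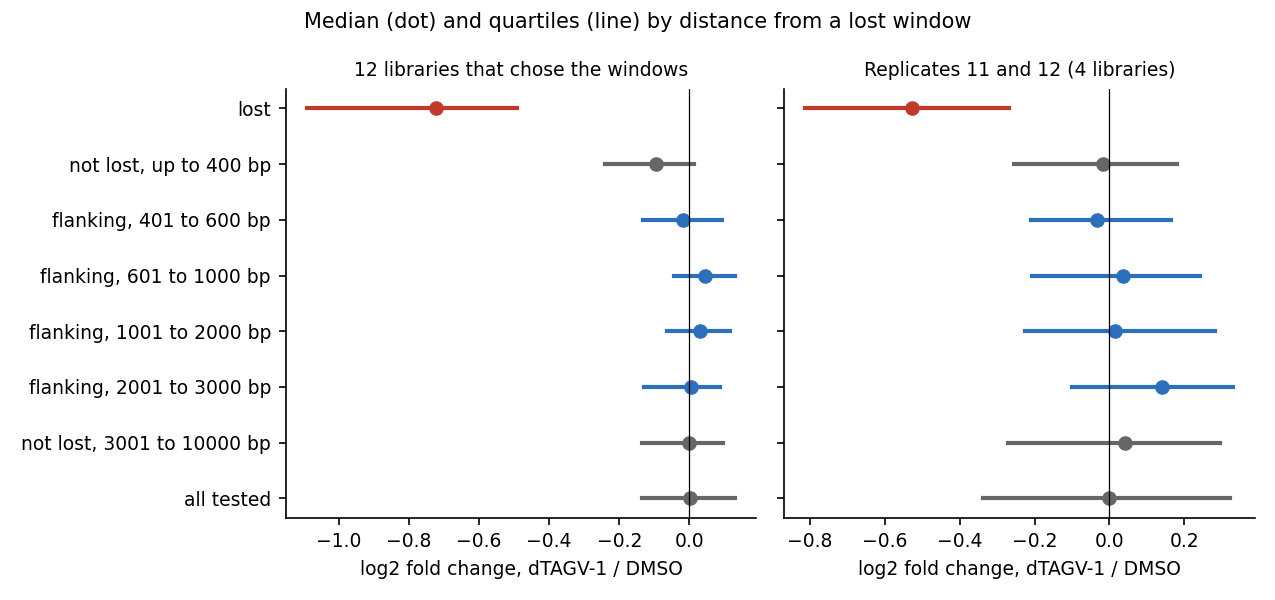
Median (dot) and quartiles (line) of the log2 fold change of lost windows, of windows that overlap a lost window, of flanking windows by distance, of windows 3000 to 10000 bp away and of all tested windows. The left panel has the 12 libraries that chose the windows and the right panel replicates 11 and 12, where lost windows sit at −0.53 and each flanking bin has quartiles on both sides of 0 or close to it.

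The side of the lost window made a small difference in the nearest bin. On the chromosome, windows at lower coordinates had a median of −0.056 within 600 bp (n = 91) and those at higher coordinates −0.0042 (n = 93). The medians were 0.038 and 0.048 at 600 to 1000 bp, 0.0045 and 0.039 at 1000 to 2000 bp, and −0.0062 and 0.0078 at 2000 to 3000 bp. Where the lost window was itself within 500 bp of a transcript start, 200 flanking windows lay on the upstream side of it and 328 on the gene side. On the upstream side the median was −0.079 within 600 bp (n = 68) and 64.7% were negative, and on the gene side it was 0.00057 (n = 99) and 49.5% were negative. At 600 to 1000 bp the medians were 0.013 (n = 66) upstream and 0.048 (n = 127) on the gene side, with 48.5% and 37.8% negative, and at 1000 to 2000 bp 0.00017 (n = 50) and 0.050 (n = 76), with 50.0% and 35.5% negative. In the farthest bin they were 0.0049 (n = 16) and −0.017 (n = 26). Over all distances, 12 of 200 upstream windows were lower and 6 higher at an unadjusted p below 0.05 in edgeR. On the gene side, 8 of 328 windows were lower and 22 higher. Over all tested windows 2.49% were lower and 1.92% higher. The rule used this contrast, so nothing is read from these counts. Without dTAGV-1 replicate 14 the medians in the nearest bin were −0.13 upstream and −0.020 on the gene side, and over all distances 13 upstream windows were lower and 5 higher, and 16 gene-side windows were lower and 17 higher.

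**Figure D3:**
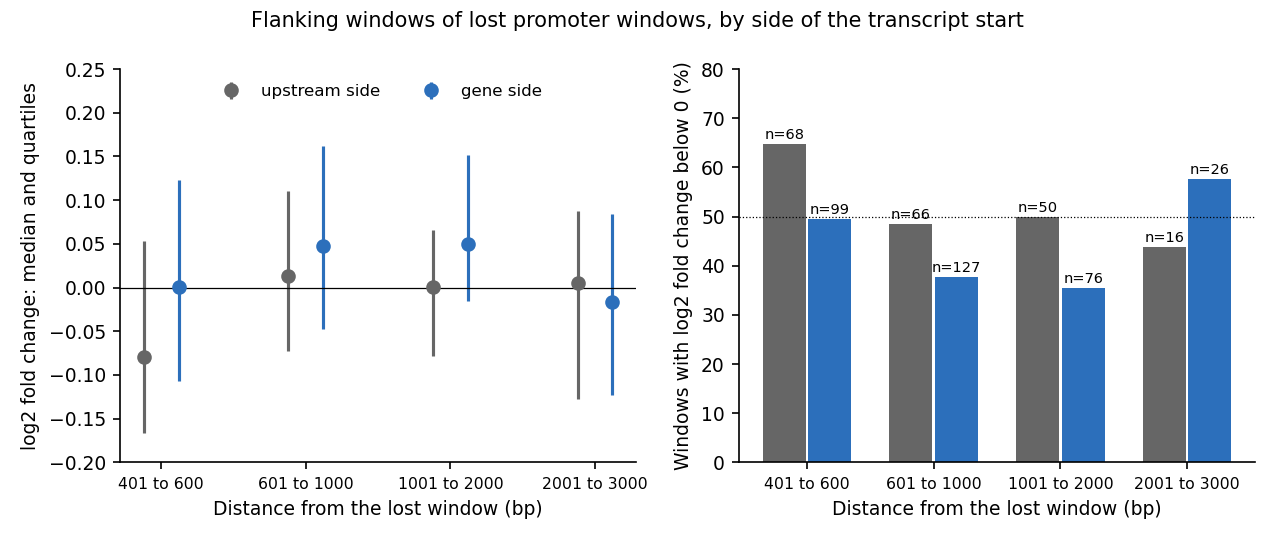
Flanking windows of lost promoter windows, by distance bin and by side of the transcript start. The left panel gives the median log2 fold change with quartiles and the right panel the percentage of windows with a log2 fold change below 0, with n above each bar. The upstream side lies below the gene side in the first 3 bins, by less than the width of the quartiles, and above it in the farthest bin.

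In replicates 11 and 12 the nearest bin had a median of −0.018 upstream and −0.035 on the gene side, so that the order of the sides was the opposite there. The control level differed between the sides as well, at 3.57 log2 CPM upstream and 3.16 on the gene side in that bin, and its part in the difference was not tested. Windows shortly inside a transcript start were set beside the flanking windows at the same place. Over the 13395 windows that were not lost and lay 200 to 1000 bp inside the nearest start, the median log2 fold change was 0.0030, with 195 higher (1.46%) and 188 lower at an unadjusted p below 0.05. The 209 flanking windows among them had a median of 0.038, with 14 higher (6.70%) and 2 lower. The medians in replicates 11 and 12 were 0.00035 and 0.0032. A gap this small cannot be judged there, since the median of all flanking windows had an SD of 0.20 log2 between libraries of one group. Along the strand of the ZNF143 core, where the lost window held a core in one orientation, the median was 0.0042 before the core (n = 35) and 0.045 after it (n = 58). The order was the opposite within 600 bp, at 0.044 (n = 7) and −0.093 (n = 11), and over all distances in replicates 11 and 12, at 0.23 and 0.051.

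In the libraries that took no part in the choice, lost windows were again mostly lower, and the flanking windows were centred near 0. Replicates 11 and 12 gave a median log2 fold change of −0.53 over the lost windows, with 94.7% negative. The flanking windows had a median of 0.029, with quartiles of −0.21 and 0.23, and 316 of 673 (47.0%) were negative, against −0.00085 and 50.1% over all tested windows. The bins had medians of −0.032, 0.036, 0.015 and 0.14 from the nearest to the farthest. The mean level above all tested windows was 1.16 and 0.83 log2 CPM in the DMSO libraries and 1.11 and 0.98 in the dTAGV-1 libraries, so that the groups overlapped, and 2 against 2 cannot give an exact permutation p below 0.333. In edgeR, no window in the table passed an adjusted p of 0.05 in these libraries (0.0% of those tested), and DESeq2 called none either. At an unadjusted p below 0.05 in edgeR, 4 flanking windows were lower (0.594%, against 1.18% of all tested windows) and 8 were higher (1.19%, against 1.03%). The median standard error was 0.46, which is larger than most fold changes seen in the 12 libraries. Leaving out 1 library at a time took the median from −0.10 to 0.22, the lower count from 3 to 18 and the higher count from 2 to 82. The lower count was 13 without DMSO replicate 11 and 18 without DMSO replicate 12, and the higher count was 82 without DMSO replicate 11, 3 without dTAGV-1 replicate 11 and 2 without dTAGV-1 replicate 12.

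The values of single flanking windows had a low correlation between the 12 libraries and replicates 11 and 12. Across the 673 windows, the log2 fold changes of the 12 libraries and of replicates 11 and 12 had a Spearman rho of 0.069 and a Pearson r of 0.098, against a rho of 0.55 across the 767 lost windows. The median standard error of flanking windows was 0.147 in the 12 libraries and 0.46 in replicates 11 and 12. Their fold changes in the 12 libraries had quartiles of −0.085 and 0.114, so a low rho cannot tell whether single changes carried over. Lost windows were chosen for their falls and ranged more widely, with quartiles of −1.09 and −0.49. Windows are not independent, since neighbours share libraries and some share counts. The fold changes of flanking and lost windows showed no clear relation, which the standard error of flanking windows also limits. The Pearson r between the fold change of a flanking window and that of its lost window was −0.0096, and the Spearman rho −0.012.

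The 5 flanking windows called higher lay 447 to 697 bp from the lost centre, and each is near a transcript start. Of the 5, the window near TMEM245, which encodes a membrane protein, had the smallest p. It spans chr9:109119430-109119830, 447 bp from the lost centre, in coding exon sequence 307 bp inside the start. Its DMSO levels were 3.44, 3.80 and 3.99 log2 CPM (lowest, median and highest of 6) and its dTAGV-1 levels 4.07, 4.32 and 4.53. All 6 dTAGV-1 libraries were above all 6 DMSO libraries, with a log2 fold change of 0.56 (SE 0.10, edgeR adjusted p = 0.000285), or 1.47-fold. The lost window beside it, just upstream of the start, went the other way, from 5.79 to 5.96 in DMSO to 5.29 to 5.39 in dTAGV-1, a log2 fold change of −0.55 (SE 0.07).

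The pair at IFRD2, a gene for a ribosome-associated protein, had a stronger loss. The flanking window spans chr3:50292789-50293189, 453 bp away on the side of the neighbouring gene HYAL3, in untranslated sequence. Its levels were 1.66, 2.23 and 2.59 log2 CPM in DMSO and 2.76, 2.82 and 3.19 in dTAGV-1, again without overlap. The log2 fold change was 0.71 (SE 0.16, edgeR adjusted p = 0.00999877). The lost window, which holds the core printed above, went from a median of 6.03 to 4.57, a log2 fold change of −1.42 (SE 0.07). On the other side of it, a window at 713 bp in a noncoding exon of IFRD2 was at 2.64, 2.89 and 2.98 in DMSO and 2.89, 3.16 and 3.44 in dTAGV-1. There 4 of 6 dTAGV-1 libraries were above the highest DMSO library, and the log2 fold change was 0.32 (SE 0.14, edgeR unadjusted p = 0.0223).

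The window with the largest fold change of the 5 is in an intron of USP39, a splicing factor gene, and lies 661 bp from the lost window at the start of TMEM150A. It spans chr2:85603193-85603593. Its levels were 1.62, 1.83 and 2.11 in DMSO and 2.08, 2.53 and 2.92 in dTAGV-1. The groups overlapped slightly, with 5 of 6 dTAGV-1 libraries above the highest DMSO library. The log2 fold change was 0.77 (SE 0.18, edgeR adjusted p = 0.0122), beside a lost window at −0.91 (SE 0.10).

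The window at BOD1, a regulator of chromosome attachment in mitosis, had the smallest fold change of the 5. It spans chr5:173615887-173616287 in an intron, 697 bp from the lost window upstream of the start. Its levels were 3.48, 3.72 and 3.84 in DMSO and 3.88, 4.10 and 4.23 in dTAGV-1, without overlap. The log2 fold change was 0.42 (SE 0.11, edgeR adjusted p = 0.0359), beside a lost window with a core at −0.73 (SE 0.07). The window at CALCOCO1, an autophagy receptor gene, spans chr12:53726845-53727245 in an intron, 559 bp from the lost window on the start. Its levels were 1.61, 1.90 and 2.43 in DMSO and 2.27, 2.58 and 3.03 in dTAGV-1. Here 5 of 6 dTAGV-1 libraries were above the highest DMSO library, with a log2 fold change of 0.68 (SE 0.17, edgeR adjusted p = 0.0431) beside −0.97 (SE 0.07) in the lost window.

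**Figure D4:**
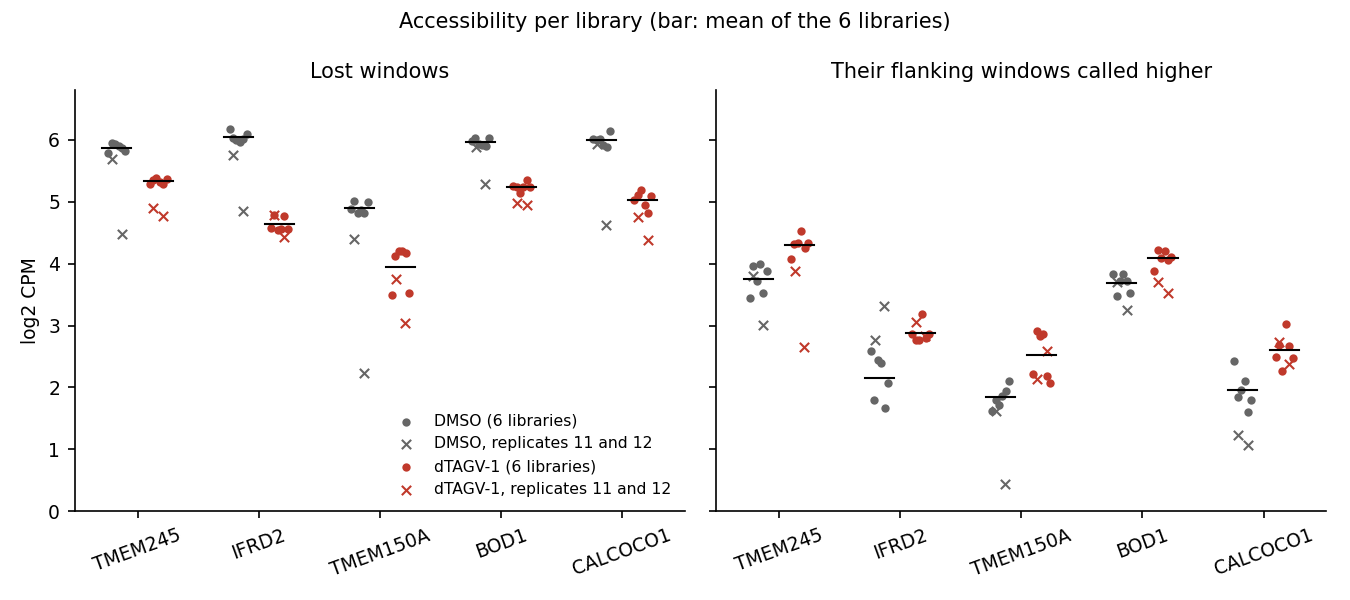
Log2 CPM per library of the 5 flanking windows called higher (right) and of the lost window beside each (left), named by the nearest start. Dots are the 6 libraries per group that chose the windows, bars their mean, and crosses replicates 11 and 12. In the dots, each lost window drops and each flanking window rises with dTAGV-1, while the crosses separate the flanking windows at TMEM150A and CALCOCO1 but not at TMEM245, IFRD2 or BOD1.

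In replicates 11 and 12 these 5 windows divided. At CALCOCO1 the DMSO libraries were at 1.22 and 1.07 log2 CPM and the dTAGV-1 libraries at 2.73 and 2.38, a log2 fold change of 1.48 (SE 0.55, edgeR unadjusted p = 0.00863). At TMEM150A they were at 1.62 and 0.44 against 2.13 and 2.59, a log2 fold change of 1.15 (SE 0.57, edgeR unadjusted p = 0.0474). Both were higher in each dTAGV-1 library than in either DMSO library. At both windows the lowest value was that of DMSO replicate 12, which had the fewest counts of the 16 libraries (2275856). These levels are low, so both fold changes rest on few counts. At BOD1, TMEM245 and IFRD2 the groups overlapped, with log2 fold changes of 0.083 (SE 0.44), −0.11 (SE 0.45) and −0.097 (SE 0.44). No adjusted p was below 0.05 in these libraries.

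In all but the TMEM245 window, leaving out 1 library could end the call. TMEM245 kept its call without each of the 12 libraries in turn, with an edgeR adjusted p of at most 0.00438. IFRD2 lost it without DMSO replicate 10, DMSO replicate 15 or dTAGV-1 replicate 14, where the edgeR adjusted p was 0.0669, 0.0870 and 0.0780. TMEM150A lost it without DMSO replicate 9 or dTAGV-1 replicate 10, 13 or 14, with 0.0551, 0.126, 0.0720 and 0.0748. BOD1 kept it only without DMSO replicate 9, DMSO replicate 14 or dTAGV-1 replicate 9, and its highest edgeR adjusted p was 0.168, without DMSO replicate 10. CALCOCO1 kept it only without DMSO replicate 9 or dTAGV-1 replicate 9 or 13, and its highest was 0.306, without dTAGV-1 replicate 14. As a result the count of flanking windows called higher was 1 without dTAGV-1 replicate 14, 2 without DMSO replicate 10, DMSO replicate 15 or dTAGV-1 replicate 10, and 3 without DMSO replicate 13, DMSO replicate 16 or dTAGV-1 replicate 16. Every fold change stayed positive in these fits, at 0.50 to 0.61 for TMEM245, 0.62 to 0.81 for IFRD2, 0.68 to 0.85 for TMEM150A, 0.38 to 0.46 for BOD1 and 0.58 to 0.80 for CALCOCO1. With replicates 11 and 12 added to the fit, 395 windows were lost, and TMEM245, IFRD2 and BOD1 lost their calls, with log2 fold changes of 0.45, 0.54 and 0.36 and edgeR adjusted p of 1.00, 0.575 and 1.00.

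Other windows with groups that did not overlap were picked after their values were seen. Besides TMEM245, IFRD2 and BOD1, dTAGV-1 was above DMSO in every library near RNASEH2C, COX16, MITF and SNAPC3. The window 773 bp from the lost one near SNAPC3, a subunit of the complex that starts small nuclear RNA transcription, was at 2.03, 2.28 and 2.45 in DMSO and 2.53, 2.82 and 3.08 in dTAGV-1, a log2 fold change of 0.58 (SE 0.16, edgeR adjusted p = 0.0733). The window near COX16, an assembly factor of cytochrome c oxidase, had the highest log2 fold change of all flanking windows at 0.78 (SE 0.24, edgeR adjusted p = 0.279) from a low level of 0.92 to 1.49 log2 CPM in the medians. RNASEH2C and MITF had 0.45 (SE 0.15) and 0.34 (SE 0.14), with edgeR adjusted p of 0.562 and 1.00. Fold changes above 0.5 on the log2 scale were found in 11 flanking windows (1.63%, against 2.00% of all tested windows) and below −0.5 in 3 (0.446%, against 2.74%). The rule left lost windows out of the flanking windows, while all tested windows include them. Flanking windows also had a smaller median standard error, 0.147 against 0.230, so nothing is read from these shares.

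On the lower side no flanking window could be called, and the smallest p-values were close to the limit only in a few. The lowest was at chr2:218269517-218269917, over the start of AAMP, 637 bp from a lost window near the start of PNKD. Its levels were 2.64, 3.09 and 3.13 log2 CPM in DMSO and 2.40, 2.49 and 2.62 in dTAGV-1, without overlap, a log2 fold change of −0.53 (SE 0.15, edgeR adjusted p = 0.105). In replicates 11 and 12 it was at 3.36 and 2.79 in DMSO and 2.69 and 1.58 in dTAGV-1, a log2 fold change of −0.92 (SE 0.45, edgeR unadjusted p = 0.0470). Its lost neighbour had a log2 fold change of −0.28 (SE 0.07), and the difference between these windows was not tested. Without DMSO replicate 16 the edgeR adjusted p of the AAMP window was 0.0480.

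The window in an intron of KCNK15-AS1, at chr20:44736198-44736598 and 2620 bp from its lost window, was at 3.50, 3.95 and 4.12 in DMSO and 3.27, 3.47 and 3.76 in dTAGV-1. The groups overlapped through DMSO replicate 14, the lowest control. The log2 fold change was −0.41 (SE 0.11, edgeR adjusted p = 0.115), and without that library the edgeR adjusted p was 0.0198. At ZNF140, a zinc finger gene, the window over the start at chr12:133080655-133081055 went from a median of 5.17 to 4.86, with 3 of 6 dTAGV-1 libraries below the lowest DMSO library. Its log2 fold change was −0.27 (SE 0.08, edgeR adjusted p = 0.201), beside −0.78 (SE 0.07) in the lost window 647 bp upstream.

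Weaker p-values were found at NICN1 and PRCC. The NICN1 window, 409 bp from its lost window, had a log2 fold change of −0.24 (SE 0.09). The PRCC window, 545 bp from its lost window in a coding exon, was at 3.10, 3.27 and 3.41 in DMSO and 2.50, 2.92 and 3.12 in dTAGV-1, a log2 fold change of −0.35 (SE 0.13). Their edgeR adjusted p were 0.659 and 0.823. R3HDM1, picked after its values were seen, had the only other window with every dTAGV-1 library below every DMSO library, at −0.14 (SE 0.07).

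Around the 6 lost windows of smallest p with neighbours on both sides, flanking windows were near 0 at ACTR1A, LETM1 and PEX26, positive at IFRD2, lower inside PRCC and of mixed sign at SMIM13. At ACTR1A, a dynactin subunit gene, the lost window upstream of the start went from 6.27, 6.32 and 6.49 log2 CPM in DMSO to 5.32, 5.39 and 5.46 in dTAGV-1 (log2 fold change −0.95, SE 0.06). The window 674 bp away in the first part of the gene was as open, at 6.17, 6.28 and 6.36 in DMSO, and was at 6.18, 6.22 and 6.37 in dTAGV-1, a log2 fold change of −0.036 (SE 0.06). On the other side, 978 bp away at the start of SUFU, a repressor of hedgehog signalling, it was 0.066 (SE 0.07). These are among the most precise values of the set, and both lie within 1 SE of 0.

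The PRCC and LETM1 loci were alike in that both flanks were below 0. At PRCC the lost window had −1.28 (SE 0.07), the flank towards the divergent gene HDGF −0.072 (SE 0.14) at 524 bp, and the flank inside PRCC −0.35, as given above. At LETM1, a gene for a mitochondrial inner membrane protein, the lost window had −1.01 (SE 0.08) and its flanks −0.14 (SE 0.19) at 598 bp and −0.072 (SE 0.12) at 449 bp. At PEX26, a peroxisome gene, a loss of −1.02 (SE 0.09) stood between −0.094 (SE 0.15) at 1681 bp and 0.029 (SE 0.15) at 605 bp. At SMIM13 the lost window had −0.69 (SE 0.07), the upstream flank at 506 bp −0.17 (SE 0.13) and the flank inside the gene at 868 bp 0.24 (SE 0.14), which differ in sign although neither passed an unadjusted p of 0.05.

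**Figure D5:**
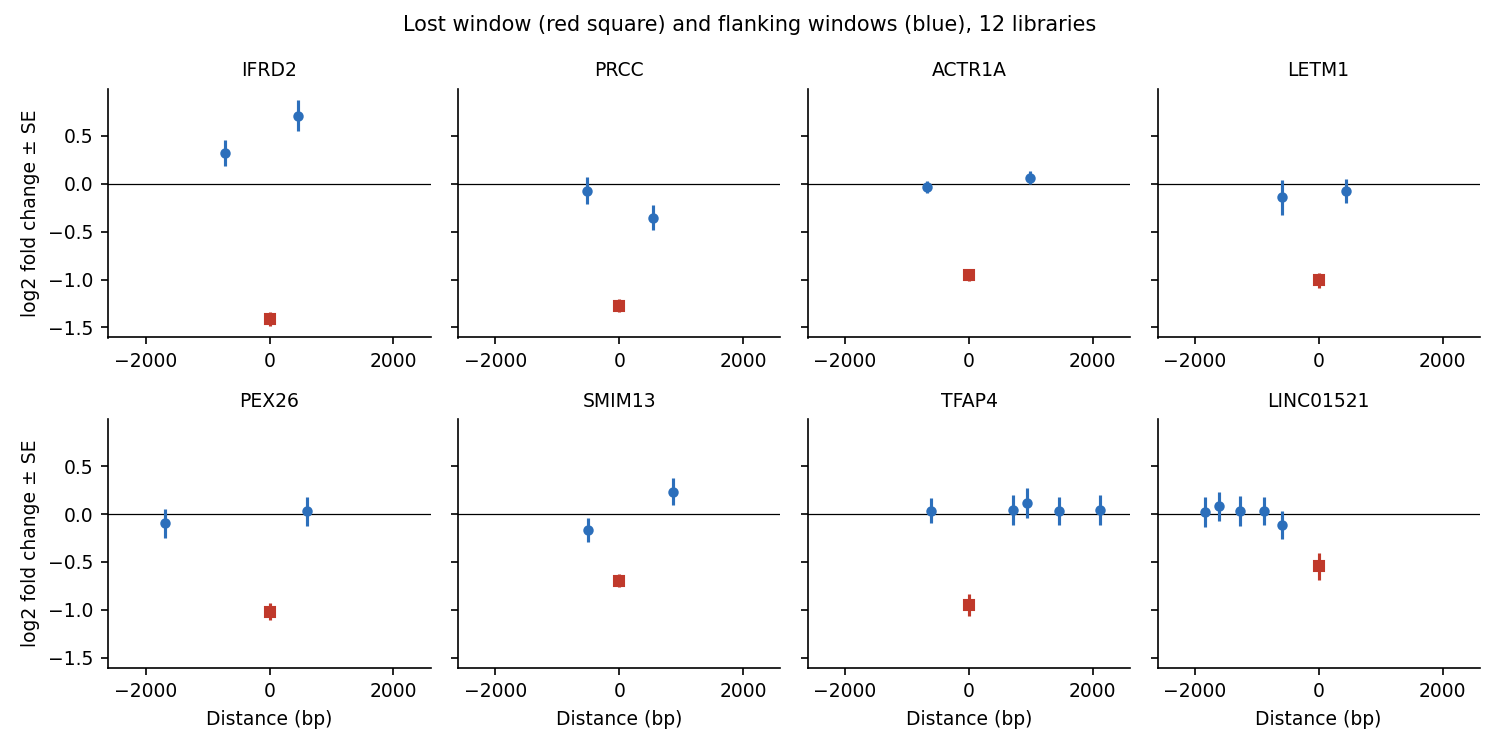
Log2 fold change with its SE (12 libraries) of 8 lost windows (red squares) and their named flanking windows (blue dots) against the distance in bp from the lost centre. Lost windows lie between −0.55 and −1.42. The flanking windows farthest from 0 are those of IFRD2 at 0.71 and 0.32 and the inner flanks of PRCC at −0.35 and SMIM13 at 0.24.

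The lost windows with most neighbours were at TFAP4, a helix-loop-helix transcription factor gene, and at LINC01521, with 5 flanking windows each. The TFAP4 lost window, 901 bp inside the start, had a log2 fold change of −0.95 (SE 0.12). Its flanks at 605 bp on one side and 706, 940, 1459 and 2122 bp on the other had 0.037, 0.044, 0.11, 0.033 and 0.046, each with an SE of 0.13 to 0.16. The one at 940 bp is over the start itself, which thus did not show the loss at this precision. The LINC01521 lost window had −0.55 (SE 0.14), and its flanks at 584, 881, 1271, 1603 and 1830 bp, towards the start of PATZ1, had −0.12, 0.033, 0.036, 0.083 and 0.026, each with an SE of 0.15 to 0.16. Several of these windows overlap each other. At CCDC163 the lost window had the smallest p in the table, at −1.97 (SE 0.09). Its one flank, 516 bp away, was at 1.85, 2.16 and 2.38 log2 CPM in DMSO and 1.29, 1.98 and 2.30 in dTAGV-1, a log2 fold change of −0.19 (SE 0.19, edgeR unadjusted p = 0.314).

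The flanking windows that hold a ZNF143 core had fold changes near 0, like most flanking windows. The rule left out every window called lower, with or without a core, so these values are partly set by the choice. They do not show how windows with a core respond in general. These 8 windows were picked after their values were seen, and some are shown because they carry the same letters as the lost sites above. Those with the core closest to the window centre, LMTK3 (chr19:48510731-48510759, minus strand, 16 bp from the centre), HBP1 (chr7:107169794-107169822, minus, 21 bp) and PTCD3 (chr2:86106210-86106238, plus, 30 bp), read as follows in hg38, with the core in capitals.
LMTK3: aactacaactCCCACAATGccttgggcca
HBP1: ctcccttcccCCCATCATGtgaccgcagc
PTCD3: ggcacgctttCCCAACATGctctgcagag

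Their log2 fold changes were 0.14 (SE 0.18), 0.029 (SE 0.08) and −0.11 (SE 0.12). MGRN1, a ubiquitin ligase gene, had the most open window of the 8, at 5.31, 5.51 and 5.63 log2 CPM in DMSO and 5.38, 5.45 and 5.64 in dTAGV-1, with −0.026 (SE 0.07). The windows near ZW10, PPP1R13L, CAPN10-DT and FHIT had 0.042, −0.11, 0.042 and 0.076. All 8 lay between −0.11 and 0.14, with edgeR unadjusted p of 0.327 and above.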

How the data were processed

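ATAC-seq reads were processed with cutadapt 1.8.1, Bowtie2 2.4.4, SAMtools 1.9 and hg38, per the submitters' processing notes. The peak caller, any Tn5 shift and the counting tool are not given in the sources used here. The deposited table gives the authors' whole-number counts per window, not normalized, and their peak value on a −log10 q scale.

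The test was edgeR's quasi-likelihood test (edgeR 4.0.16 in R 4.3.3) after filterByExpr by treatment and TMM scaling, without covariates, with Benjamini-Hochberg adjustment over all tested windows (threshold 0.05). DESeq2 1.42.0 was an alternative. Standard errors were derived from the fitted statistic. Each flanking window was assigned to its nearest lost window, and windows overlapping a lost one were left out of the medians. Motifs and starts came from hg38 and GENCODE release 44. The fit was checked on simulated counts. The number of count columns left unused was 0. Counts of the 56 pairs of libraries within groups differed beyond sampling noise (chi-square per degree of freedom 1.64 to 4.80), so that all 16 were counted as separate.

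Windows named are those called higher, the 6 of smallest p on the lower side at or above the median level, the nearest flanks of the 6 lost windows of smallest p with flanks on both sides, those near CCDC163, CALCOCO1 and TMEM150A, and those of the lost windows with most flanks. One window that this rule names is not reported here. Others are marked as picked after their values were seen. Members and lists were chosen with earlier results of these data known.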

Additional observations from a re-analysis of the deposited data

Results flagged for a closer look

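In 9 of 130 groups of 6 libraries examined, 1 library stood apart from the other 5 by more than Dixon's limit, which chance passes in about 1 in 20 groups. Among flanking windows, dTAGV-1 replicate 14 was at 3.19 log2 CPM in the IFRD2 window called higher, against 2.76 to 2.86 in the others. In the KCNK15-AS1 window, DMSO replicate 14 was at 3.50 against 3.90 to 4.12. In the other IFRD2 window, DMSO replicate 9 was at 2.64 against 2.87 to 2.98. In the upstream SMIM13 window, dTAGV-1 replicate 9 was at 2.70 against 3.44 to 3.64. In the TFAP4 window over the start, dTAGV-1 replicate 9 was at 2.10 against 2.60 to 2.76. In the CAPN10-DT window, DMSO replicate 14 was at 1.94 against 2.58 to 2.82.

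Among lost windows, DMSO replicate 9 was at 6.49 in the ACTR1A window, against 6.27 to 6.34. The same library was at 5.83 in the FHIT window, against 5.99 to 6.09. In the LETM1 window, dTAGV-1 replicate 9 was at 4.08 against 4.41 to 4.53. Replicate 9 of either group accounts for 6 of the 9 values and replicate 14 for the other 3.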

How the results depend on the processing

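With all 16 libraries, lost windows numbered 395 and flanking windows 335. Over the windows as chosen in the 12 libraries, 2 were then called higher and 9 were lower at an unadjusted p below 0.05. In replicates 11 and 12, DESeq2 gave 0 flanking windows lower and 0 higher at an unadjusted p below 0.05. Leaving out each of the 12 libraries gave 674 to 761 lost windows, 615 to 665 flanking windows, 1 to 6 called higher, 12 to 29 lower and 24 to 39 higher at an unadjusted p below 0.05, and a median log2 fold change of −0.0055 to 0.029. The 12 lower windows were those without dTAGV-1 replicate 15. Leaving out each of the 4 libraries of replicates 11 and 12 gave 3 to 18 lower and 2 to 82 higher, where the lone sample of a group is assumed to vary like the others. RLE scaling, DESeq2, no filter on low counts, a threshold of 0.01, an outer limit of 2000 or 5000 bp and windows that do not overlap kept the lost and flanking counts within 1.5 times and the medians within the spread between libraries, in the 12 libraries and for each of these settings that was run. The share of flanking windows with a ZNF143 core was 2.82% within 200 bp of the centre, against 3.65% of all tested and 18.0% of lost windows, and 0.594% for the longer core, against 0.589% and 12.4%.

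Same-numbered libraries did not all deviate together (correlations of 0.016 to 0.138 in the 12 libraries, where 5 of 6 exceeded the best other number, and of 0.029 to 0.315 over all 16, where 5 of 8 did and 5 of 8 were above 0.1), so the number was not taken as a pairing. With the replicate block, lost windows numbered 916, flanking windows 838 and windows called higher 7. AAMP, KCNK15-AS1 and ZNF140 then passed the threshold on the lower side, with edgeR adjusted p of 0.0332, 0.0137 and 0.0140. In replicates 11 and 12 the block gave a median of 0.045.

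Replicates 11 and 12 have 2 libraries a group, fewer counts and a median standard error of 0.46, so that changes of the size seen in most flanking windows were not detectable there.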
